A study of Mus musculus with 2 samples.

Results

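The 7 microRNA genes described here, Mir191, Mir425, Mir423, Mir361, Mir186, Mir320 and Mir484, are taken as steady references when microRNAs are measured by PCR or on arrays. They were chosen by name from the 2202 microRNA genes of the GENCODE M21 annotation, and all 7 were found in the count tables. The libraries came from C2C12 myocytes, a mouse myoblast line from crushed thigh muscle of the C3H strain that was obtained from ATCC and differentiated in culture for 72 h. There was 1 group of 2 biological replicates with no treatment and no genotype difference, so the data give the level of each microRNA and how closely the 2 replicates agreed. Whether the 7 genes are equally steady across tissues or during differentiation cannot be seen from 1 cell state.

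A microRNA is cut from a hairpin in a longer transcript, first by Drosha in the nucleus and then by Dicer in the cytoplasm, and its seed near the 5′ end pairs with target mRNAs. A reference for microRNA assays should be present in every sample at a similar level, since the other microRNAs are divided by it. miR-191, miR-425 and miR-423 are common choices because they are found in many tissues and fluids. miR-320 and miR-484 differ from the others in how they are made: their hairpins are known as short capped transcripts that do not need Drosha.

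RefSeq mature sequences (GRCm38.p6, the patch release of mm10) were matched for 6 of the 7 genes, and Mir320 was not matched. They are shown to make clear which short RNAs a count stands for, because the counts do not separate the arms of a hairpin. The seed, bases 2 to 8, is in capitals.
miR-191-5p: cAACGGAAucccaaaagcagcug
miR-191-3p: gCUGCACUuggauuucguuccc
miR-425-5p: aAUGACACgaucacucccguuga
miR-425-3p: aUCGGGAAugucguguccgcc
miR-423-5p: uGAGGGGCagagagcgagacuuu
miR-423-3p: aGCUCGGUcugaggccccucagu
miR-361-5p: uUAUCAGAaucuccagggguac
miR-361-3p: uCCCCCAGgugugauucugauuugu
miR-186-5p: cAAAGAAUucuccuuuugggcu
miR-186-3p: gCCCUAAGgugaauuuuuuggg
miR-484: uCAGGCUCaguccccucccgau

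The 11 mature forms had 11 different seeds, so no seed was shared among these 6 genes. In the RefSeq table of 1738 mature forms, the seed of miR-425-5p also occurred in Mir489 and that of miR-423-5p in Mir6921, while the other 9 seeds occurred in no further gene. No read of Mir489, a microRNA of quiescent muscle stem cells, was counted in either library. At the limit of 3 counts that a count of 0 allows, its level could be at most 0.396 CPM (replicate 1) or 0.304 CPM (replicate 2), counting error only. CPM are counts per 1000000 sense-strand counts given to microRNA genes. Mir6921 had 1 count in replicate 1 and 0 in replicate 2. No hairpin of the 7 genes shared 20 bases with a microRNA gene at another place in the genome, unlike 78 of the 314 detected genes, where detected means at least 10 counts in each library.

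Mir191 and Mir425 stood side by side on the plus strand of chromosome 9 (mm10), Mir191 from 108568319 to 108568392 and Mir425 from 108568777 to 108568861, with 384 bases between them. Both lay in an exon of the noncoding transcript gene 4833445I07Rik, upstream of Dalrd3. Mir423 (chromosome 11, 77078064 to 77078172, minus strand) lay in an intron of Nsrp1, the gene of a nuclear speckle splicing protein. Mir361 (chromosome X, 113074824 to 113074893, minus strand) lay in an intron of Chm, which encodes a Rab escort protein. Mir186 (chromosome 3, 157544279 to 157544349, plus strand) lay in an intron of Zranb2, the gene of a zinc finger splicing factor. Mir320 (chromosome 14, 70443510 to 70443591, plus strand) lay in no annotated gene, 62 bases from the start of Polr3d, an RNA polymerase III subunit gene on the other strand. Mir484 (chromosome 16, 14159626 to 14159692, plus strand) lay upstream of Nde1 and partly overlapped an untranslated exon of Marf1 on the other strand.

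The libraries had 7581366 assigned counts in replicate 1 and 9865298 in replicate 2. Mir206, a microRNA of skeletal muscle, held 34.1% and 41.7% of them, so that all other CPM depend on its share. Of 8 muscle markers 6 were detected, with a summed level of 355284 CPM in replicate 1 and 428244 in replicate 2. Mir206 made up most of it, followed by Mir133b (13610 and 10568 CPM), Mir499 and Mir208b. Mir133b shares 20 bases with Mir133a-1 and Mir133a-2, so its count is uncertain. The Mir1a and Mir133a copies, which share sequence so that their reads can be lost as multi-mapped, lay between 1.01 and 4.22 CPM. Markers of other cell types had these levels: 2 of 4 blood markers were detected (101 and 183 CPM in sum), none of 5 epithelial markers (4.35 and 2.13 CPM), none of 6 neuronal markers (0 and 1 count) and none of 4 pluripotent markers (0 counts in both libraries).

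All 7 microRNAs were detected, at mean levels from 532 to 3039 CPM, and together they took 1.01% of the assigned counts in replicate 1 and 1.03% in replicate 2 (1.02% ± 0.0152, SD, n = 2). With these totals their joint share moved little while single members moved in both directions. That closeness depends on the totals. Without Mir206 in them, 5 of the 7 were higher in replicate 2 and 2 in replicate 1, beside 4 and 3 with it. The median log2 ratio of replicate 1 over replicate 2 was −0.24 without Mir206, beside −0.07 with it. Mir191, Mir425, Mir320, Mir484 and Mir423 had a mean above 1000 CPM, a level reached by 65 of the 314 detected genes. Mir361 and Mir186 were less abundant. The labels do not say whether the cultures were differentiated separately, so SDs and tests describe the difference of this pair of libraries and may hold a technical share.

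**Figure D1:**
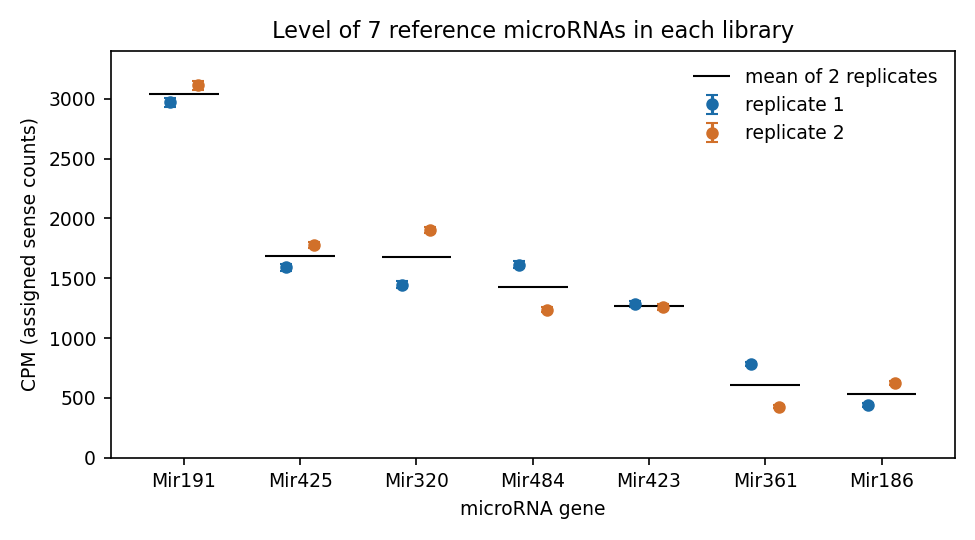
Level of the 7 microRNA genes in each library, in CPM on a linear axis from 0. Points are the libraries with exact binomial 95% intervals (counting error only), lines the mean of 2 replicates. Mir191 stands above the others in both libraries. In CPM the points of Mir320 and Mir484 lie farthest apart, and relative to its level those of Mir361 do.

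Mir191 had the highest level of the 7 in both libraries, with 22507 counts (2969 CPM) in replicate 1 and 30680 counts (3110 CPM) in replicate 2. It ranked 33 and 29 among all microRNA genes. Its mean was 3039 ± 99.8 CPM (SD, n = 2). The replicates differed by 1.05-fold, which at this depth was still more than counting error (log2 ratio of replicate 1 over replicate 2 −0.07, exact binomial test with Benjamini-Hochberg adjustment over the 314 detected genes, adjusted p = 2.48e-07). The size of this ratio depended on the scaling, and it was −0.24 (1.18-fold) when Mir206 was left out of the library totals. All of these counts came from the sense-strand column. In the either-strand column Mir191 had 0 counts in both libraries, because the annotated gene Gm24083 covers it on the minus strand and reads that touch both genes are entered as ambiguous. Gm24083 itself had 0 sense counts in both libraries, and its opposite-strand counts were 22507 and 30680, those of Mir191.

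Mir425, the neighbour of Mir191, was the less abundant of that pair. It had 12059 counts (1591 CPM) in replicate 1 and 17527 (1777 CPM) in replicate 2, a mean of 1684 ± 132 CPM (SD, n = 2). It was 1.12-fold higher in replicate 2 (exact binomial test, adjusted p = 1.79e-20), and 1.26-fold without Mir206 in the totals. Mir191 had 1.87 times the counts of Mir425 in replicate 1 (95% interval 1.83 to 1.91) and 1.75 times in replicate 2 (1.72 to 1.78). This ratio needs no library scaling. It changed by 0.09 on the log2 scale, the second smallest change among the 21 pairs of the 7 genes, and the intervals of the 2 libraries did not overlap.

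Mir423 had the closest replicates of the 7. It had 9720 counts (1282 CPM) in replicate 1 and 12434 (1260 CPM) in replicate 2, a mean of 1271 ± 15.4 CPM (SD, n = 2). Its log2 ratio was 0.02 with a counting interval from −0.01 to 0.06, and it was the only one of the 7 that did not pass the exact binomial test (adjusted p = 0.271). This outcome depended on the scaling: the ratio was −0.15 with an adjusted p of 1.54e-14 when Mir206 was left out of the library totals, and −0.06 with an adjusted p of 0.00255 in the either-strand column. Of the 314 detected genes, 7 had a smaller absolute log2 ratio than Mir423.

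The Drosha-independent pair moved in opposite directions. Mir320 had 10965 counts (1446 CPM) in replicate 1 and 18756 (1901 CPM) in replicate 2, a mean of 1674 ± 322 CPM (SD, n = 2). Mir484, which has been tied to mitochondrial fission in heart muscle cells, had 12224 counts (1612 CPM) in replicate 1 and 12217 (1238 CPM) in replicate 2, a mean of 1425 ± 264 CPM. Mir320 was 1.31-fold higher in replicate 2 and Mir484 1.30-fold higher in replicate 1, both beyond counting error (exact binomial test, adjusted p = 2.73e-116 and 1.12e-93). Without Mir206 in the totals these differences were 1.49-fold and 1.15-fold. The count of Mir484 was nearly the same number in both libraries although replicate 2 had 1.30 times the assigned counts. Mir320 was below Mir484 in replicate 1 (0.897 of its count) and above it in replicate 2 (1.54 times its count).

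Mir361 and Mir186, the least abundant of the 7, had the widest spread relative to their level. Mir361 had 5946 counts (784 CPM) in replicate 1 and 4227 (428 CPM) in replicate 2, a mean of 606 ± 252 CPM (SD, n = 2). Its count was clearly lower in the deeper library, and its CPM was 1.83-fold higher in replicate 1 (log2 ratio 0.87, counting interval 0.82 to 0.93, exact binomial test, adjusted p = 2.27e-201). Mir186, which has been reported to hold back muscle differentiation through myogenin, had 3332 counts (439 CPM) in replicate 1 and 6152 (624 CPM) in replicate 2, a mean of 532 ± 130 CPM. It was 1.42-fold higher in replicate 2 (log2 ratio −0.50, adjusted p = 1.09e-60). Mir361 was 1.78 times Mir186 in replicate 1 and 0.687 of it in replicate 2, and this pair had the largest change of all 21, 2.60-fold.

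By mean level the order was Mir191, Mir425, Mir320, Mir484, Mir423, Mir361 and Mir186. Only the steps from Mir191 to Mir425 and from Mir423 to Mir361 were wider than the spread between the replicates. The ranges of the 2 libraries overlapped for Mir425 and Mir320, Mir320 and Mir484, Mir484 and Mir423, and Mir361 and Mir186, so the order within these neighbours was not settled. Of the 21 pairs 16 had the same order in both libraries.

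Of the 7 microRNAs 6 passed the binomial test, and 66.6% of all 314 detected genes did, so passing it does not set the 7 apart. The test compares 2 libraries and covers counting error only. Mir361 and Mir484 passed it as higher in replicate 1, beside 38.2% of all detected genes, and Mir191, Mir425, Mir320 and Mir186 as higher in replicate 2, beside 28.3% of all detected genes. All 7 lay within 2-fold, beside 78.0% of detected genes. Their median absolute log2 ratio was 0.38, beside 0.51 over all detected genes. Among the 45 other genes with a mean CPM between that of Mir186 and that of Mir191, 45 passed the test, 34 lay within 2-fold and the median was 0.66. The signed median of the 7 was −0.07, beside 0.09 over all detected genes.

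**Figure D2:**
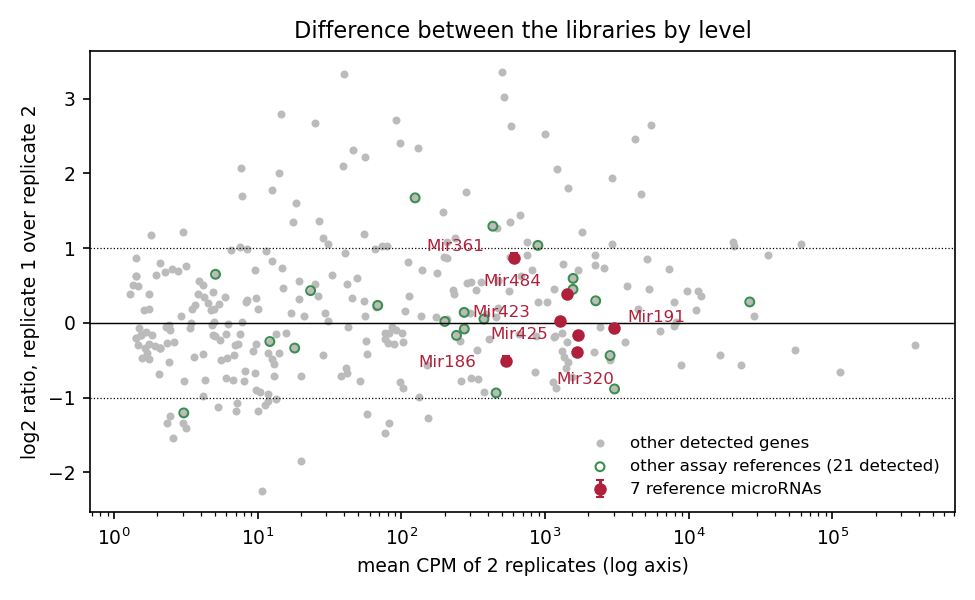
Log2 ratio of replicate 1 over replicate 2 against mean CPM (log axis) for the 314 detected genes; the 7 microRNAs are filled red with counting intervals, the 21 other assay references are ringed, and dotted lines mark 2-fold. The 7 lie between −0.50 (Mir186) and 0.87 (Mir361), all inside the 2-fold lines.

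Within the set, closeness differed more than these medians show. With assigned totals, Mir423, Mir191 and Mir425 lay among the closest genes, with 2.23%, 5.73% and 15.0% of detected genes closer. Mir484 and Mir320 stood at 38.5% and 39.5%, Mir186 at 49.7% and Mir361 at 71.7%. Without Mir206 in the totals the places changed: Mir423 stood at 12.4%, Mir484 at 17.8%, Mir191 at 21.7%, Mir425 at 30.9%, Mir320 at 53.2%, Mir186 at 60.8% and Mir361 at 62.1%. Mir484 was then closer than Mir191 and Mir425. The GC content of the hairpins was 51.4% for Mir423 and 54.1% for both Mir191 and Mir425, the 3 closest genes with assigned totals. It was 58.2% for Mir484, 63.4% for Mir320, 33.8% for Mir186 and 41.4% for Mir361, and its part in the ratios was not tested.

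Ratios between members do not depend on library totals and were computed for all 21 pairs. Their median change between the libraries was 1.36-fold, and 3 pairs changed by more than 2-fold, each of them with Mir361 (against Mir425, Mir320 and Mir186). The smallest changes were those of Mir191 against Mir423 (1.07-fold), Mir191 against Mir425 (1.07-fold) and Mir186 against Mir320 (1.08-fold). Averaged over the other 6 genes, the absolute change on the log2 scale was 0.39 for Mir191, 0.40 for Mir423 and 0.40 for Mir425, then 0.52 for Mir320, 0.58 for Mir484, 0.61 for Mir186 and 0.99 for Mir361. An average of this kind is smallest for genes in the middle of the ordered ratios between the libraries and largest at the ends. It therefore restates those ratios and is no separate measure of steadiness. Mir191, Mir423 and Mir425 lay in the middle, and Mir361 lay at one end and departed from every other member by at least 0.49. By single pairs, Mir186 against Mir320 changed less (0.11 on the log2 scale) than Mir425 against Mir423 (0.18). With 2 libraries these values are descriptions of 1 difference and not estimates of a variance.

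**Figure D3:**
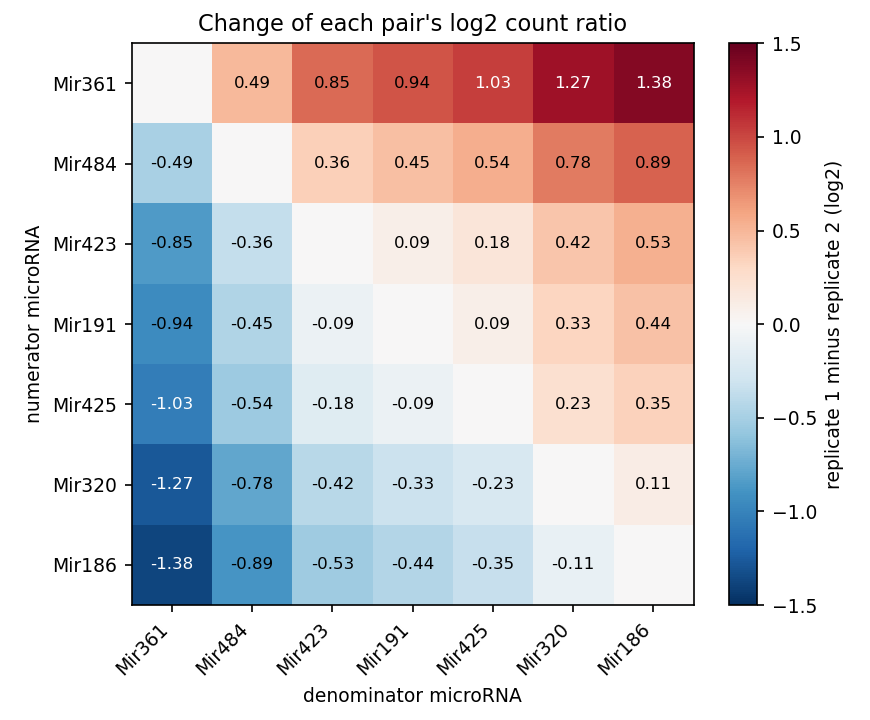
Change of the log2 count ratio of each pair (row over column), replicate 1 minus replicate 2, with genes ordered by their ratio between the libraries. Changes are near 0 among Mir423, Mir191 and Mir425 and reach 1.38 for Mir361 over Mir186.

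The choice of a member as the reference changed what the libraries appear to show. Replicate 2 was 1.30 times as deep as replicate 1 by assigned counts, 1.27 times by TMM and 1.25 times by DESeq2 size factors. The DESeq2 factors were taken without a minimum count, so genes of few counts enter them, and they were the same in the either-strand column. The depth of replicate 2 over replicate 1 was 1.28 by Mir423, 1.36 by Mir191 and 1.45 by Mir425. It was 1.71 by Mir320, 1.85 by Mir186, 0.999 by Mir484 and 0.711 by Mir361. The geometric mean of the 7 gave 1.28. Mir206 was 1.22-fold higher in replicate 2 with totals that include it, 1.38-fold with totals without it and 1.32-fold with all reads. With single members it was 1.17-fold higher with Mir191, 1.24-fold with Mir423, 1.09-fold with Mir425 and 1.59-fold with Mir484. It was 2.24-fold higher in replicate 2 with Mir361 as the reference, whereas with Mir186 and Mir320 it was lower there, at 0.862 and 0.930 of its level in replicate 1. The number of detected genes more than 2-fold apart was 69 with totals, 70 with Mir423, 72 with Mir191, 78 with Mir425 or Mir484, 92 with Mir320, 104 with Mir186 and 147 with Mir361. With a single member as the reference, the depth, the Mir206 ratio and this number all follow from that member's own ratio. These values therefore restate the ratios above and are no separate measure of steadiness.

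**Figure D4:**
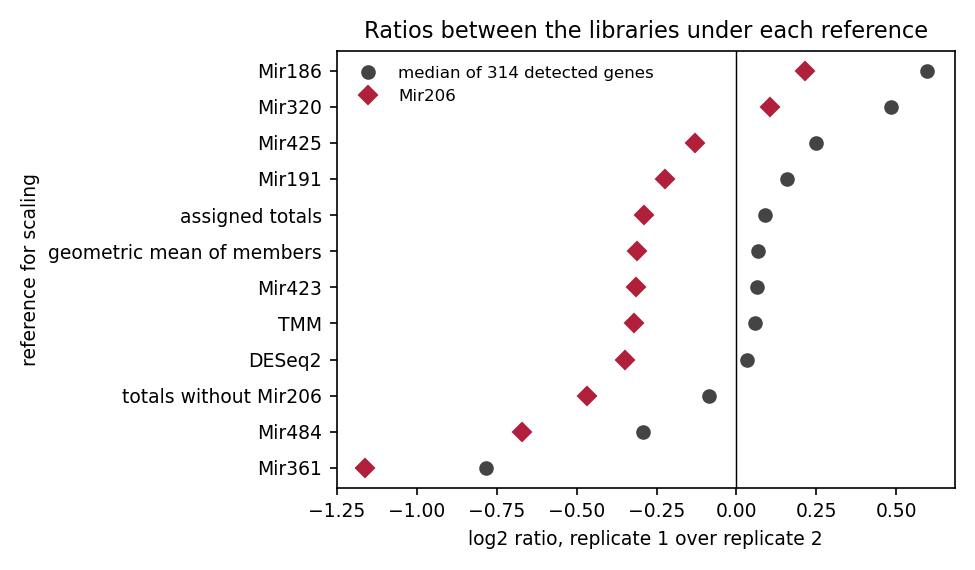
Log2 ratio of replicate 1 over replicate 2 for Mir206 (diamonds) and for the median detected gene (circles) when the libraries are scaled to each microRNA alone, to their geometric mean, or by library totals with or without Mir206, TMM or DESeq2 factors. The median gene ranges from −0.78 with Mir361 to 0.59 with Mir186 and is 0.07 with Mir423.

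A list of 22 further hairpin genes whose microRNAs serve as references in assays was set beside the 7. Of these 21 were detected, and 15 of them (71.4%) passed the binomial test, beside 66.6% of all detected genes. Of the 15, 10 were higher in replicate 1 and 5 in replicate 2, beside 38.2% and 28.3% of all detected genes. Within 2-fold lay 17 of the 21 (81.0%), beside 78.0% of all detected genes. The median absolute log2 ratio of the 21 was 0.43, beside 0.38 for the 7 and 0.51 for all detected genes. The most abundant were Mir23a with 26596 ± 3628 CPM, Mir24-2 with 3046 ± 1281, Mir30e with 2835 ± 604 and Mir93 with 2251 ± 324 (SD, n = 2 for each). Mir23a and Mir24-2 share 20 bases with other hairpins, as do 12 of the 21, so their counts are uncertain.

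The closest replicates on that list were those of Mir24-1 (202 and 199 CPM), Mir92-1 (382 and 369 CPM) and Mir328 (266 and 282 CPM). None of these 3 passed the exact binomial test (adjusted p = 0.767, 0.215 and 0.0740). Mir24-1 shares bases with Mir24-2 and Mir92-1 with Mir92-2, so both counts are uncertain, and Mir328 is the only one of the 3 without such a copy. The copies of miR-16, a microRNA that restrains the cell cycle and is often used as a reference, were far apart: Mir16-1 was at 615 CPM in the first library and at 251 in the second, and the values of Mir16-2 were 190 and 59.5. Mir26a-1 stood at 1.85 and 4.26 CPM, from 14 and 42 counts. Mir16-1, Mir16-2 and Mir26a-1 also share bases with a second copy and are uncertain. The 9 genes of the list that share no such bases had a median absolute log2 ratio of 0.44, and 8 of 9 lay within 2-fold.

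**Figure D5:**
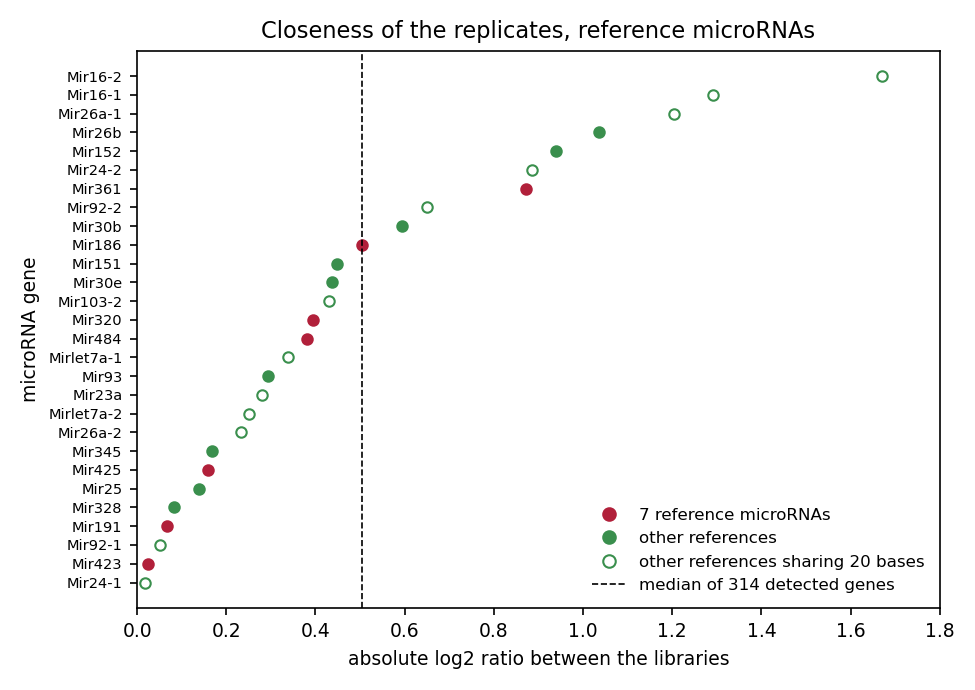
Absolute log2 ratio between the libraries, scaled by assigned totals, for the 7 microRNAs (red) and the 21 other assay references (green, open where 20 bases are shared with another hairpin); the dashed line is the median of detected genes, 0.51. Mir423 and Mir191 lie among the lowest 4, and Mir361 lies above the line at 0.87.

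For each of the 7, the nearest of the 307 other detected genes was found by the distance between log2(CPM + 1) values over the 2 libraries. Mir708 (738 and 403 CPM) was nearest to Mir361, at a distance of 0.13, although its count is uncertain because it shares bases with Gm23134. Mir500 (1249 and 1375 CPM) was nearest to Mir423 at 0.13, Mir151 (1805 and 1323 CPM) to Mir484 at 0.19, Mir130b (1168 and 1935 CPM) to Mir320 at 0.31 and Mir30e (2408 and 3262 CPM) to Mir191 at 0.31. Mir296 (1304 and 1560 CPM) was nearest to Mir425 at 0.34, and Mir139 (471 and 446 CPM) to Mir186 at 0.49. Mir151 and Mir30e are themselves on the list of other references. With 2 libraries, likeness means only a similar level in each.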

How the data were processed

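MicroRNA sequencing libraries of short RNA (total RNA, adapters trimmed, per the labels' protocols) were available for 2 biological replicates. Per the deposited notes, the authors used mm10 and GENCODE M21; which aligner and counter were run is not given in the sources used. The deposited values are read counts per hairpin gene, not normalized, in either-strand, sense and opposite-strand columns. The sense column was used. Entries that name no gene (unmapped, multi-mapped, unassigned; 50.6% and 46.5% of reads) were left out.

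CPM were computed over assigned sense counts. Genes with at least 10 counts in each library were compared by a two-sided exact binomial test on the totals (scipy 1.17.1), Benjamini-Hochberg adjusted over all 314, threshold 0.05. The test was checked on counts simulated with counting error only, which is what it assumes, so the check cannot show how it handles variation between libraries. There 1.49% of unchanged genes passed. Of genes set 1.2-fold, 1.5-fold and 2-fold apart, 57.1%, 66.1% and 96.6% passed. Intervals are exact binomial 95% intervals; without molecular identifiers they cover counting error only. TMM factors came from edgeR 4.0.16 and size factors from DESeq2 1.42.0. Host genes were read from M21 and mature sequences from RefSeq.

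The members and lists were chosen with earlier results of these data known, and scaling to single members was added after the values were seen. Named are the 7 genes, the nearest gene to each, seed sharers, and of the other references the 4 most abundant and the 3 closest and 3 farthest between replicates.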

Additional observations from a re-analysis of the deposited data

How the results depend on the processing

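The number of the 7 microRNAs past the binomial test was 6 or 7 under all 6 alternatives tried (6 of the 6 that had counts in the either-strand column). A minimum of 1 or 100 counts alters only the adjustment, as all 7 had at least 3332 counts. With the main settings 66.6% of all detected genes passed. Their share under the alternatives is not given here, so this number does not set the 7 apart. Of 34 ratios of single members recomputed with another scaling or strand column, 30 kept their direction and side of the threshold; pseudocounts do not enter the test and are not counted. The other 4 were those of Mir423, whose log2 ratio of 0.02 became −0.0058 with TMM factors, −0.033 with DESeq2 size factors, −0.15 without Mir206 in the totals and −0.062 in the either-strand column. The signed median of the 7 moved from −0.07 to −0.10, −0.12, −0.24 and −0.15 under these settings in the same order, and the absolute median from 0.38 to 0.32 with DESeq2 size factors and 0.34 without Mir206. The joint share of 1.02%, a mean of the 2 libraries, was 0.526% of all reads and 1.65% without Mir206 in the totals. It was 0.822% in the either-strand column, where Mir191 has no counts. With assigned totals it was 1.01% to 1.03% with either replicate left out. The count of genes more than 2-fold apart moved from 69 to 147 when scaled to Mir361 and to 104 when scaled to Mir186. In the either-strand column Mir191 was lost, and 741854 reads of replicate 1 and 1485288 of replicate 2 were entered as ambiguous. Mir191 had 22507 and 30680 sense counts, a small part of these. Mir378a, overlapped on the plus strand by Gm25301, had 663482 and 1366156 sense counts. The part of each gene in the ambiguous reads was not tested. The counts of Mir423 were the same in the either-strand column (9720 and 12434), so its ratio moved only with the totals. What else lies behind these shifts was not tested. With 1 group of 2 libraries, steadiness across conditions could not be measured.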
